A study of Capra hircus with 6 samples.

Results

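The genes described here build, bind and cut the extracellular matrix: collagens, laminins, integrins, matricellular proteins, metalloproteinases and their inhibitors. They were chosen by name alone, as every probe whose only gene symbol in the array's annotation belonged to one of these families. The rule found 76 probes for 74 genes, among 8379 probes in all and 6535 genes with a probe of a single symbol. Of these, 57 probes for 55 genes gave a signal above background and entered the comparison.

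The matrix of the mammary gland has a sheet-like basement membrane of laminins, type IV collagen and perlecan under the epithelium, and a stroma of fibrillar collagens and small proteoglycans around it. Cells hold on to it through integrins, each a dimer of an alpha and a beta chain, and cultured mammary epithelium of mice needs laminin contact to express milk protein genes. Metalloproteinases of the MMP, ADAM and ADAMTS families and the plasminogen system cut matrix and cell-surface proteins, TIMPs block the metalloproteinases, and the balance between them is known for remodelling the gland after weaning.

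Lactating mammary gland was compared between goats of the Low CSN1S1 genotype and goats of the High CSN1S1 genotype, to ask how this milk protein polymorphism bears on expression in the gland. CSN1S1 encodes alpha-s1-casein. All 6 goats received a control diet ad libitum. Total RNA of 1 Low and 1 High goat was hybridised together on each 2-colour oligonucleotide array, and each of 3 such pairs of goats was measured on 2 arrays with the dyes swapped. The labels give no age, breed, allele name or stage of lactation. The array probes were designed for cattle, and their match to each goat transcript could not be checked here.

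Every ratio below is a log2 ratio of the Low to the High goat. A value under 0 means less signal in Low, and the pair of goats was the replicate (n = 3). CSN1S1, the check of the labels, had a ratio of -2.43 ± 0.22 (SD, n = 3), a level in Low of 18.6% of that in High (limma adjusted p = 5.13e-04). Of its High spots, 3 were saturated, which makes the difference a lower limit there; with these spots left out the ratio was -2.37. After removal of spots with manual or empty flags, the arrays kept 72.4% to 84.9% of matrix and protease spots and 74.1% to 82.2% of all probe spots. Of the 57 probes, 51 had values on 6 arrays and 6 on 5 arrays, and 31 were above background in both channels on all 6 arrays. Precision is limited by how few arrays there are.

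No gene of the set passed the test between the genotypes. Called lower in Low were 0 of the 57 probes and called higher 0, where 0.11% of all 6378 probes were called lower and 0% higher at a limma adjusted p of 0.05. The lowest adjusted p among them was 0.885. At an unadjusted p under 0.05 there was 1 probe, for COL7A1, beside 5.36% of all probes. Ratios lay above 0 for 31 probes and below 0 for 26, beside 50.9% above 0 among all probes. The median was 0.01 against 0.0014 over all probes. The typical size of a ratio was 0.0367 (median, sign ignored) against 0.0408 over all probes.

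The intervals were narrow. For 56 of 57 probes the 95% interval lay within -0.5 to 0.5, as it did for 98.5% of all probes. It lay within -0.25 to 0.25 for 53 of them, beside 86.7% of all probes. These intervals hold for the main background correction, and ratios of dim probes depended on it. With background subtracted instead, TIMP1 was at -0.20 against -0.07 and LAMA1 at 0.17 against 0.07. The bright DCN was at -0.05 in both. At the median standard error of the set, 0.0471, a measured ratio of 0.45 or 1.37-fold was needed for a call. Probes with a smaller error needed less and those with a larger error more. For a typical probe, smaller ratios would thus not have been called with 3 pairs. In a whole gland, fewer cells of a type and less RNA per cell cannot be told apart.

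**Figure D1:**
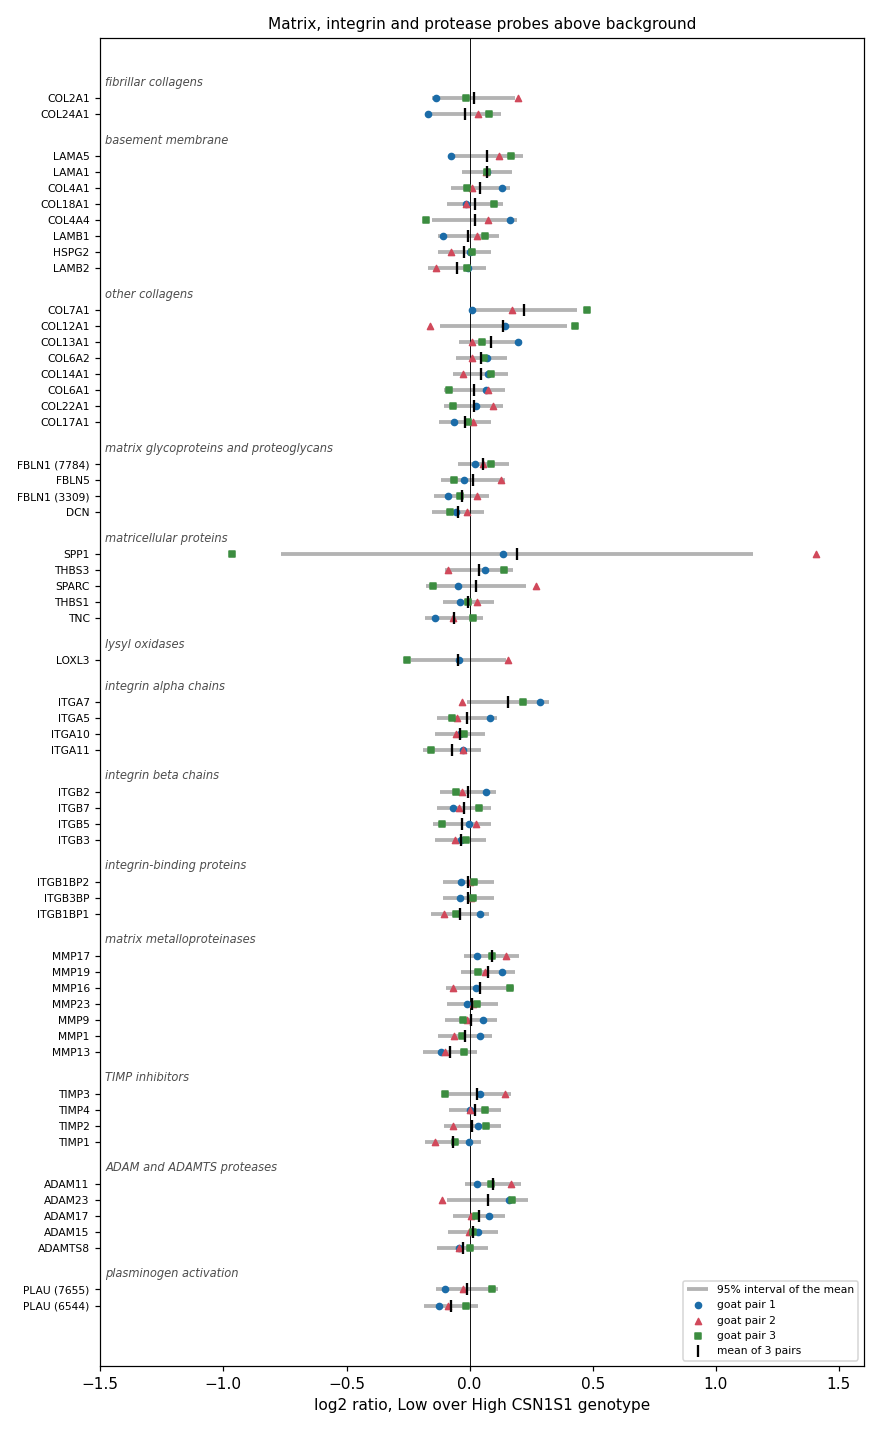
Log2 ratios of Low over High for the 57 matrix, integrin and protease probes above background, grouped by role. Coloured points are the 3 goat pairs, black ticks their mean and grey bars the 95% interval of the mean; numbers beside PLAU and FBLN1 tell their probes apart. Apart from SPP1, the means lie between -0.08 and 0.22 and no pair lies outside -0.25 to 0.48.

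SPP1, the gene of osteopontin, a secreted integrin ligand that mammary epithelium also releases into milk, was the exception in spread. In pair 1, its signal above background was 478 units in the Low goat and 511 in the High goat on the array with Low in Cy5. The dye-swapped array of the same goats gave 1481 in Low and 1059 in High. The arrays of pair 1 thus went opposite ways before normalization, and still did after it, at log2 ratios of -0.23 and 0.51. In pair 2, the arrays gave 728 in Low against 283 in High, and 1018 against 307. In pair 3, they gave 1827 in Low against 4207 in High, and 1286 against 2185. The Low goat was therefore the higher one on both arrays of pair 2 and the lower one on both arrays of pair 3, and the genotypes overlapped.

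After normalization, the 3 pairs had SPP1 ratios of 0.14, 1.41 and -0.97. SPP1 was thus 2.65-fold higher in the Low goat of pair 2 and 1.95-fold lower in the Low goat of pair 3. The mean was 0.19 ± 1.19 (SD, n = 3; 95% interval -0.76 to 1.15; limma adjusted p = 0.939). By exact sign-flip permutation of the 3 pairs p was 0.75, where 0.25 is the smallest it can give. The interval uses the standard error of the limma fit (0.39), which draws on the spread of other probes. From the spread of SPP1 alone it would be wider. The direction of the mean rested on single pairs, at -0.41 without pair 2 and 0.77 without pair 3. It also turned with the dyes, at -0.20 on the 3 arrays with Low in Cy5 and 0.59 on the 3 with Low in Cy3.

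The SD of SPP1 over pairs ranked 2 among 6378 probes. The next in the set was COL12A1 at 0.29, and the median of the set was 0.0679, against 0.0792 over all probes. A limma F test of whether the 3 pairs differ, with the dye-swapped arrays as the error, was added after these values were seen. It called SPP1 (adjusted p = 2.69e-04) and no other of 51 set probes with 6 arrays, beside 8 of 5717 probes (0.14%) in all. The error in this test is that of arrays of the same 2 RNA extracts, so it speaks of these goats and not of the genotype.

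Across goats, the mean log2 signal of SPP1 was 9.89, 10.17 and 10.33 in the Low goats of pairs 1, 2 and 3. In the High goats it was 9.75, 8.76 and 11.30. The High goats held both the lowest and the highest level, a span of 2.54. The median span over 6 goats in the set was 0.52 and that over all probes 0.55. For these levels, unlike the ratios, the average intensities of the arrays were also quantile-normalized between arrays. Goats of different pairs were on different arrays, so these spans can still hold differences between arrays.

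**Figure D2:**
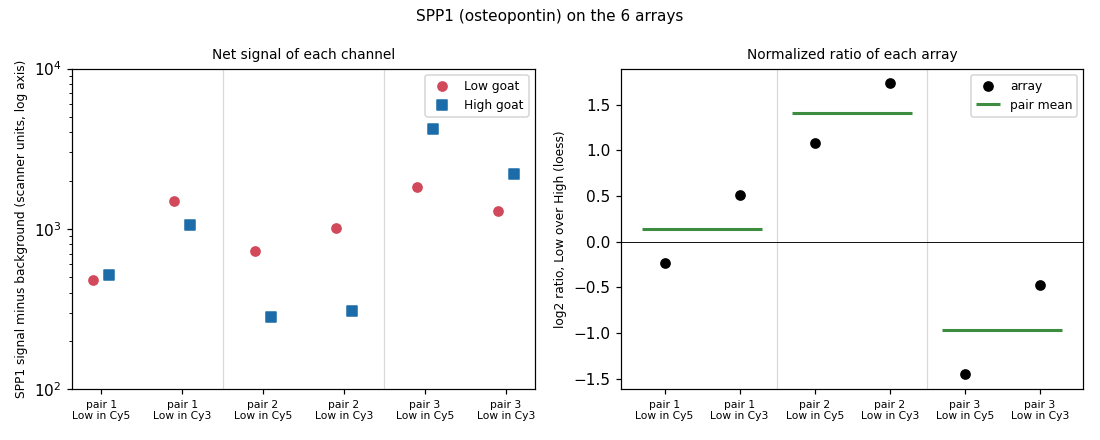
SPP1 on each of the 6 arrays. Left, signal minus background of the Low and the High goat in scanner units on a log axis; right, the normalized log2 ratio of Low over High of each array (points) and the mean of each pair (lines), at 0.14, 1.41 and -0.97.

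The other matricellular proteins, which bind matrix and cells without building fibres, did not pass the test either. TNC (tenascin C) had ratios of -0.14, -0.07 and 0.01 in the 3 pairs and a mean of -0.07 ± 0.08 (SD, n = 3; limma adjusted p = 0.885). THBS3 (thrombospondin 3) was at 0.06, -0.09 and 0.14, with a mean of 0.04 ± 0.12. The pairs of both genes spanned 0. SPARC (osteonectin, a collagen-binding protein) was at 0.03 ± 0.22 on 5 arrays and THBS1 (thrombospondin 1) at -0.0051 ± 0.03. THBS2 and THBS4 were not above background in enough arrays.

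Among fibrillar collagens, which make the load-bearing fibres, 2 of 4 probes were above background. COL24A1 was at -0.17, 0.04 and 0.08 in the 3 pairs, with a mean of -0.02 ± 0.13 (SD, n = 3; adjusted p = 0.967). COL3A1, a main stromal collagen, was not above background on any array in either genotype, and COL11A1 only on 2 arrays in each.

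COL2A1, the collagen of cartilage, sits on the array directly beside CSN1S1 in the same row. Its signal above background in Low was 499, 418, 271, 629, 419 and 392 units over the 6 arrays, taken by pair with Low in Cy5 first. In High it was 477, 499, 204, 645, 318 and 493 on the same arrays. The genotypes overlapped. In these signals, which are not normalized, Low was the higher channel on all 3 arrays with Low in Cy5. It was the lower on all 3 with Low in Cy3. After normalization the ratios in the same order were -0.10, -0.17, 0.25, 0.15, 0.02 and -0.05. The sign then turned with the dye only in pair 3.

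The COL2A1 ratio was -0.14, 0.20 and -0.01 in the 3 pairs and 0.02 ± 0.17 on average (SD, n = 3; 95% interval -0.15 to 0.19; limma adjusted p = 0.971). Mean signals before normalization were 438 in Low and 439 in High, while at CSN1S1 they were 7345 and 39274. Over single arrays, High minus Low at COL2A1 ran from -0.29% to 0.35% of the difference at CSN1S1, so the near-equal means come from arrays of opposite sign. Such shares are upper limits in size on the arrays with saturated CSN1S1 spots. On the other side of CSN1S1 lies CSK, a kinase that holds SRC family kinases in check, with 586 in Low and 804 in High. High minus Low there was 0.34% to 1.07% of that at CSN1S1 over the 6 arrays. CSK was lower in Low on 6 of 6 arrays, at -0.42 ± 0.08 (SD, n = 3; limma adjusted p = 0.0701), which did not pass the threshold. The next probe on that side, for CYB5R3 (cytochrome b5 reductase 3), was dim, at 31.9 units in Low and 105 in High; it is named here after its values were seen. It was also lower in Low on 6 of 6 arrays, at -0.66 ± 0.15 (SD, n = 3; limma adjusted p = 0.0408), and so passed the threshold. Whether light from CSN1S1 spots has a part in the CSK or CYB5R3 values was not tested.

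**Figure D3:**
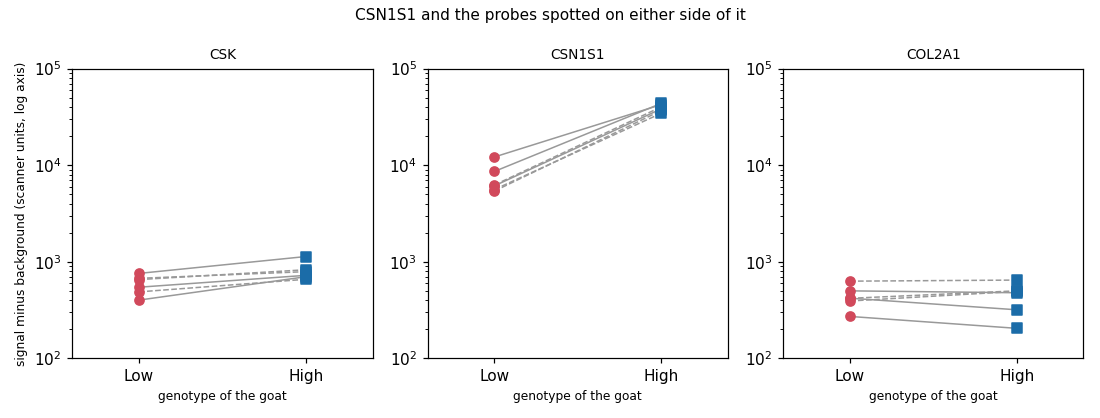
Signal minus background, in scanner units on a log axis, of CSN1S1 and of the probes spotted directly before it (CSK) and after it (COL2A1). The signals are not normalized. Each line joins the Low and the High goat on 1 array, solid with Low in Cy5 and dashed with Low in Cy3. All 6 lines of CSN1S1 and CSK go up from Low to High; those of COL2A1 go up when dashed and down when solid, between 204 and 645.

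Of 11 basement membrane probes, 8 were above background, 5 with ratios above 0 and 3 below (median 0.02). LAMA1, the alpha chain of the founding laminin, was at 0.07, 0.07 and 0.07 in the 3 pairs, and LAMA5, a laminin alpha chain common in adult epithelium, at -0.07, 0.12 and 0.17. Their means were 0.07 ± 0.0020 and 0.07 ± 0.13 (SD, n = 3), each at a limma adjusted p from 0.885 to 0.886. LAMA1 had the lowest SD of the set, yet its 6 arrays ran from -0.06 to 0.20. The type IV collagen chains were at 0.04 ± 0.08 (COL4A1) and 0.02 ± 0.18 (COL4A4). COL18A1, the source of the fragment endostatin, was at 0.02 ± 0.07, and HSPG2, which encodes perlecan, at -0.02 ± 0.05. The laminin beta chains were at -0.0055 ± 0.09 (LAMB1) and -0.05 ± 0.08 (LAMB2). COL4A6, LAMB3 and NID2 were not above background in enough arrays.

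The remaining collagens had 8 of 10 probes above background, 7 of them with ratios above 0 (median 0.05). COL7A1, the anchoring fibril collagen that ties basement membrane to stroma, came closest to a call. Its ratio over the 6 arrays, in the same order, was 0.17, -0.16, 0.06, 0.28, 0.60 and 0.35, so it was above 0 on 5 of 6 arrays. The pairs were at 0.01, 0.17 and 0.48, with a mean of 0.22 ± 0.24 (SD, n = 3; 95% interval 0.0034 to 0.44; limma adjusted p = 0.885, unadjusted 0.0474). The exact sign-flip permutation gave p = 0.25. Without pair 3 the mean was 0.09. Its signal was low, above background on 5 arrays in Low and 4 in High.

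COL13A1, a transmembrane collagen, was at 0.20, 0.01 and 0.05 in the 3 pairs and 0.09 ± 0.10 on average (SD, n = 3; limma adjusted p = 0.885). COL12A1, which decorates collagen fibrils, was at 0.14, -0.16 and 0.43, with a mean of 0.14 ± 0.29, and its value in pair 3 came from 1 array. COL12A1 and COL7A1 were both highest in pair 3. The type VI collagen chains, which form beaded filaments, were at 0.02 ± 0.09 (COL6A1) and 0.05 ± 0.03 (COL6A2, on 5 arrays). COL17A1, of hemidesmosomes, was at -0.02 ± 0.04, COL22A1 at 0.02 ± 0.08 and COL14A1, a fibril-associated collagen, at 0.04 ± 0.06. COL6A3 and COL9A2 were not above background in enough arrays.

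Matrix glycoproteins and proteoglycans had all 4 probes above background, 2 on each side of 0. DCN (decorin, a proteoglycan that coats collagen fibrils) gave 2783 to 5277 units above background in Low and 3039 to 5404 in High. Its ratio was -0.06, -0.01 and -0.08 in the 3 pairs and -0.05 ± 0.04 on average (SD, n = 3; limma adjusted p = 0.895). FBLN1 (fibulin 1, a basement membrane and elastic fibre protein) had 2 probes that took opposite sides of 0. Probe Bt00007784 was at 0.06 ± 0.03 and probe Bt00003309 at -0.03 ± 0.06, neither past the threshold (adjusted p = 0.886 and 0.923). FBLN5, which organises elastic fibres, was at 0.01 ± 0.10. Lysyl oxidases, which cross-link collagen and elastin, had 1 of 3 probes above background, LOXL3 at -0.04, 0.16 and -0.25 in the 3 pairs (mean -0.05 ± 0.20; adjusted p = 0.935).

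The integrin chains had 8 of 10 probes above background, 1 with a ratio above 0 and 7 below. The 95% interval of each included 0, so this count shows no direction of the family. ITGA7, the alpha chain of a laminin receptor, was the one above 0. Its ratio over the 6 arrays was 0.42, 0.15, 0.06, -0.12, 0.24 and 0.20, above 0 on 5 of 6. The pairs were at 0.29, -0.03 and 0.22, with a mean of 0.16 ± 0.17 (SD, n = 3; 95% interval -0.0098 to 0.32; limma adjusted p = 0.885). Pair 2 alone was below 0.

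The collagen-binding alpha chains were at -0.07 ± 0.07 (ITGA11, on 5 arrays) and -0.04 ± 0.02 (ITGA10), and ITGA5 of the fibronectin receptor at -0.01 ± 0.08 (SD, n = 3). ITGA2B, a platelet integrin chain, was not above background on any array. Of the beta chains, ITGB3 was at -0.03, -0.06 and -0.02 in the 3 pairs (mean -0.04 ± 0.02; limma adjusted p = 0.909), and ITGB5 at -0.0026, 0.03 and -0.11 (mean -0.03 ± 0.07). Both pair with the alpha V chain in receptors that bind osteopontin. The leukocyte chains ITGB2 and ITGB7 were at -0.0063 ± 0.06 and -0.02 ± 0.06. The common partner ITGB1 was above background on only 1 array in each genotype.

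The name rule also took in 3 proteins that are not integrin chains but bind their tails or bear their name. ITGB1BP1, an inhibitor of integrin activation, was at 0.04, -0.10 and -0.05 in the 3 pairs and -0.04 ± 0.07 on average (SD, n = 3; limma adjusted p = 0.919). ITGB3BP, a nuclear protein, was at -0.0065 ± 0.03 and ITGB1BP2 (melusin, of muscle) at -0.0051 ± 0.03.

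Of 9 matrix metalloproteinase probes, 7 were above background, 5 with ratios above 0 and 2 below. MMP13 (collagenase 3) was at -0.12, -0.10 and -0.02 in the 3 pairs and -0.08 ± 0.05 on average (SD, n = 3; limma adjusted p = 0.885). MMP17, a metalloproteinase anchored in the membrane, was at 0.03, 0.15 and 0.09, with a mean of 0.09 ± 0.06. Each kept 1 direction in all 3 pairs, as did 18 of the 57 probes, beside 26.8% of all probes. MMP19 was at 0.07 ± 0.05 on 5 arrays and was the one probe of the set with the same sign on all its arrays, as were 194 of 6378 probes in all. The collagenase MMP1 and the gelatinase MMP9 were at -0.02 ± 0.05 and 0.0055 ± 0.04. MMP16, which sits in the membrane, was at 0.04 ± 0.12 on 5 arrays and MMP23 at 0.01 ± 0.02. MMP14, a membrane enzyme that activates other metalloproteinases, and MMP3 (stromelysin 1) were not above background in enough arrays.

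All 4 TIMP inhibitors were above background. TIMP1 was at -0.0040, -0.14 and -0.06 in the 3 pairs and -0.07 ± 0.07 on average (SD, n = 3; limma adjusted p = 0.885). TIMP4 was at 0.0028, 0.00061 and 0.06, with a mean of 0.02 ± 0.03 (adjusted p = 0.939). TIMP2 and TIMP3 were at 0.01 ± 0.07 and 0.03 ± 0.12. Summed over the 4 genes, the normalized signal was 3861 to 4255 units in the 3 Low goats and 3819 to 4290 in the 3 High goats, so the genotypes overlapped. The same sum over the 7 MMP probes was 1812 to 2501 in Low and 1820 to 2467 in High. Within pairs, the median ratio was 0.02, -0.03 and 0.0020 for the TIMPs and 0.03, -0.01 and 0.03 for the MMPs, so neither group kept 1 direction.

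Of 7 ADAM and ADAMTS probes, 5 were above background, 4 with ratios above 0. ADAM11, a member of the family without protease activity, was at 0.03, 0.17 and 0.09 in the 3 pairs and 0.09 ± 0.07 on average (SD, n = 3; limma adjusted p = 0.885). ADAM23, also without protease activity, was at 0.16, -0.11 and 0.17 (mean 0.07 ± 0.16). ADAM17, the sheddase that frees TNF and EGF receptor ligands, was at 0.04 ± 0.04. ADAM15 was at 0.01 ± 0.02 and ADAMTS8 at -0.03 ± 0.03. PLAU, the urokinase that activates plasminogen and rises in the involuting gland of mice, had 2 probes below 0 on average. Probe Bt00006544 was at -0.12, -0.09 and -0.01 in the 3 pairs (mean -0.08 ± 0.06; adjusted p = 0.885) and probe Bt00007655 at -0.10, -0.03 and 0.09 (mean -0.01 ± 0.10; adjusted p = 0.974). The receptor PLAUR and the inhibitor SERPINE2 were not above background in enough arrays.

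Of the 19 probes left out as dim, 4 were not above background on any array (COL3A1, ITGA2B, the lysyl oxidase LOXL1 and the aggrecan-cutting ADAMTS4). The other 15, which also include LOXL4 and ADAM9, were above it somewhere, on at most 3 arrays in Low and at most 2 in High. Among these, ADAM9, NID2, COL9A2, LOXL4 and THBS2 were above background on 1 array in Low and on none in High. MMP3 was so on 2 arrays in High and on none in Low. The counted channel was labelled with Cy5 in every case. It came from pair 3 for the genes counted in Low and from pairs 2 and 3 for MMP3. Normalized ratios there were -0.06 for ADAM9, -0.0074 for NID2, -0.34 for COL9A2, -0.21 for LOXL4 and -0.42 for THBS2. MMP3 was at 0.32 and 0.0020. Each sign was opposite to the count. Whether the genotype has a part in these counts was not tested.

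For most of these genes, differences between the dyes were larger than those between the genotypes. For each pair, the ratio with Low in Cy5 minus that with Low in Cy3, divided by 2, gives Cy5 over Cy3 with the genotype cancelled. Its median size over the 51 probes with 6 arrays was 0.0685, against 0.0303 for Low over High, and it was the larger value in 34 of 51. Over all 5717 probes with 6 arrays these medians were 0.104 and 0.0394, and the dye value was the larger one in 4348. In a limma fit of this value, added after the values were seen, 14 of the 51 probes (27.5%) passed an adjusted p of 0.05, beside 34.9% of all 5717 such probes. It favoured Cy5 in 8 of them and Cy3 in 6.

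MMP1 leaned to Cy5 at 0.33, 0.28 and 0.39 in the 3 pairs. SPP1 leaned to Cy3 at -0.37, -0.33 and -0.49. ADAM15 leaned to Cy3 too, at -0.27, -0.29 and -0.30. The pairs repeated these dye values closely although each held other goats. TNC (0.34), LAMB1 (0.33) and MMP13 (0.27) also favoured Cy5, and HSPG2 (-0.26) and TIMP4 (-0.25) favoured Cy3. For MMP13 the sign of Low over High turned with the dye in each pair, so its 1 direction holds for pair means only. The FBLN1 probes differed, at -0.29 for Bt00007784 and -0.04 for Bt00003309. Across the 51 probes, dye values of different pairs correlated at r from 0.682 to 0.777. Low over High ratios of different pairs correlated at r of 0.12, 0.0096 and -0.71 across 57 probes, and at -0.11, 0.22 and -0.16 without SPP1. Genes are not independent replicates, so these r describe the arrays.

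**Figure D4:**
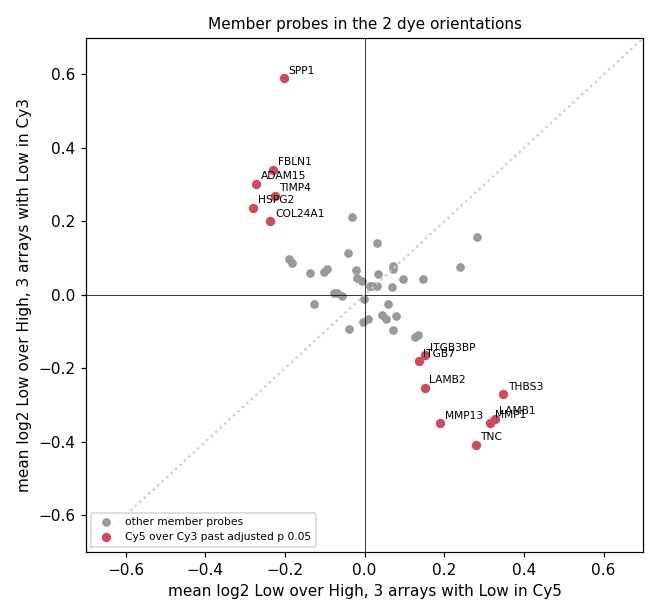
Mean log2 ratio of Low over High on the 3 arrays with Low in Cy5 (horizontal) and on the 3 with Low in Cy3 (vertical), 1 point for each of the 51 probes with 6 arrays. Probes with a Cy5 over Cy3 value past an adjusted p of 0.05 are red and named; these 14 lie above and left of 0 or below and right of 0, where the ratio turns with the dye, and the dotted line marks equal values.

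Other genes that process or join the matrix, from 6 further lists, gave 0 calls in either direction as well. Collagen processing enzymes had 12 of 12 probes above background and a median of 0.0088. P4HA2, a prolyl hydroxylase subunit, was at -0.07 ± 0.03 (SD, n = 3; limma adjusted p = 0.885). P3H1, another collagen prolyl hydroxylase, was at 0.04, 1.246 and -0.14 in the 3 pairs on 4 arrays, with 1 array in each of pairs 2 and 3 (mean 0.38 ± 0.75; adjusted p = 0.885).

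Further matrix proteins had a median of 0.01 over 21 probes. EPYC (epiphycan, a cartilage proteoglycan) was below 0 on 5 of 5 arrays, at -0.18, -0.24 and -0.43 in the 3 pairs. Its mean of -0.28 ± 0.13 (SD, n = 3) had an adjusted p of 0.419. NCAN (neurocan) was at 0.07 ± 0.05. Non-integrin matrix receptors had a median of -0.01 over 9 probes. CD44, a receptor for hyaluronan and osteopontin, was at -0.29, 0.04 and -0.28 in the 3 pairs (mean -0.18 ± 0.19; adjusted p = 0.885). Its arrays turned with the dye, at -0.80, -0.53 and -0.95 with Low in Cy5 and 0.23, 0.61 and 0.38 with Low in Cy3. The proteoglycan GPC1 was above 0 on 6 of 6 arrays, at 0.13 ± 0.14 (adjusted p = 0.885).

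Focal adhesion genes, which link integrins to the cytoskeleton and to signals, had a median of 0.02 over 13 probes. FYN, a SRC family kinase, was at -0.30, -0.68 and -0.67 in the 3 pairs and below 0 on 6 of 6 arrays. Its mean of -0.55 ± 0.21 (SD, n = 3) did not pass over all probes (limma adjusted p = 0.155). FYN and CSK were the 2 genes of lowest p in that list. Other proteases and inhibitors had a median of 0.0050 over 12 probes, among them A2M (alpha-2-macroglobulin, a broad protease trap) at -0.19 ± 0.15 and below 0 on 6 of 6 arrays, and FAP (a fibroblast surface protease) at -0.11 ± 0.09, both at an adjusted p of 0.885. Genes of TGF-beta signalling, a main inducer of matrix genes, had a median of -0.04 over 10 probes. The receptor TGFBR2 was at -0.08 ± 0.07 and the repressor SKI at -0.09 ± 0.21.

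Markers of the cell types that make or hold the matrix gave 0 calls too. Fibroblast markers had 3 of 4 genes above background (median -0.05, with DCN and COL3A1 members of both lists and COL3A1 at background). Their summed signal was 4674 to 5376 units in Low and 4885 to 5334 in High. Endothelial markers had 3 of 4 (median 0.04, with COL4A1 a member of both lists), at 2097 to 2500 in Low and 2073 to 2442 in High. Myoepithelial and smooth muscle markers had 5 of 5 (median 0.06), at 4058 to 5104 in Low and 3846 to 4750 in High. Luminal epithelial markers, those of the milk-secreting layer, had 5 of 6 (median 0.04), at 2899 to 3855 in Low and 2848 to 3644 in High. Adipocyte markers had 4 of 5 (median -0.01), at 5264 to 6675 in Low and 5407 to 6949 in High. Leukocyte markers had 5 of 6 (median 0.0013, with ITGB2 a member of both lists), at 8147 to 11315 in Low and 8205 to 10674 in High. These sums of the genotypes overlapped in each list. They come from the levels normalized between arrays, with goats of different pairs still on different arrays. Within pairs, the median ratio was 0.11, 0.03 and 0.06 for myoepithelial markers, 0.08, 0.09 and 0.03 for luminal ones, and -0.08, -0.0093 and -0.02 for fibroblast ones. These 3 lists thus kept 1 direction in all 3 pairs, which endothelial, adipocyte and leukocyte markers did not. Of single probes, 26.8% of all did so too. Within the lists the direction was not shared by every probe. VIM was at 0.0025 among the 3 fibroblast probes, and the CNN1 probes of the myoepithelial list were at 0.08 and -0.05. A shift in cell types does not follow from these medians. Their part in the matrix gene values was not tested.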

How the data were processed

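Per the labels and the file headers, the authors measured mean intensity per spot, with its local background mean, in ImaGene 6.0. The deposited background SD was taken here as the spread of the local background, in the units of the signal. The deposited series table holds log2 ratios per spot, in the direction Low over High (r of 0.987 to 0.999 with the scanner ratios). Its column medians were 0.0205, -0.0135, 0.0186, -0.0076, 0.0038 and -0.0094, and how it was centred stays unknown. How that table was normalized, and any genome build, was not given in the sources used here.

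Here intensities were corrected with normexp (offset 50) and each array was normalized by global loess, with limma 3.58.1 under R 4.3.3. Spots flagged manual or empty were set to missing and saturated spots kept. The labelled dyes set the direction of each ratio, and values were averaged over 2 spots, then over both arrays of 1 goat pair. Probes were kept if they exceeded background by 2 background SDs in Low, or in High, on at least 1 array of each pair (6378 probes). The mean was tested against 0 with lmFit and eBayes, two-sided, adjusted by Benjamini-Hochberg over all probes kept. Intervals come from this fit. For signal levels and sums per goat only, average intensities were also quantile-normalized between arrays after the loess step. Names come from an old cattle annotation, and 72 of the 74 symbols occur in a goat gene table (assembly ARS1.2).

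The members and lists were chosen with earlier results of these data known, so they give no independent support. Named genes were those with the lowest p or largest ratio in each of 13 roles, genes with several probes, and the lowest p of each further list. Other genes are named to account for the members and were chosen after their values were seen. The steps were tested on simulated data. No sequence is shown.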

Additional observations from a re-analysis of the deposited data

Results flagged for a closer look

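Among the 51 matrix, integrin and protease probes with 6 arrays, 1 held an array far from the other 5. ITGB5, an integrin beta chain, had a ratio of -0.22 on 1 array of pair 3, the one whose Low goat was labelled with Cy5, while the nearest other array was at -0.04. The gap was 0.682 of the whole range, above Dixon's 95% critical value for 6 samples. Chance alone flags about 1 in 20 such sets.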

How the results depend on the processing

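Over 19 alternative settings, 0 matrix, integrin and protease probes were called in 17. The exceptions used 1 dye orientation, which leaves the dye in the ratio: 7 calls with Low in Cy5 only (beside 1025 over all probes) and 6 with Low in Cy3 only (beside 484). TIMP4 then turned to -0.23 and THBS3 to -0.27 respectively, while MMP1, ADAM15, LAMB1 and THBS3 were called in both with opposite signs. The median of the set (0.01) was 0.0062 with background medians, 0.0025 with median centring, 0.0055 with both arrays of every pair needed, 0.0178 with Low in Cy5 only, 0.0247 with Low in Cy3 only, and -0.0062 to 0.0121 leaving out 1 pair each. Of 27 named probes of the set, 10 kept their sign in every alternative that gave them a value, and 4 were called in an alternative, each time with 1 dye orientation. Over all probes, 7 calls became 3 with background subtracted, 4 without background correction, 13 with both arrays needed, 14 with trended robust variance, 33 with the pair as a random block, 2 without pair 2 and 32 without pair 3. Without variance moderation 0 probes were called (346 at an unadjusted p under 0.05), CSN1S1 included (adjusted p = 0.852). Dim probes and 3 pairs limit what could be detected.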
